A study of Mus musculus with 10 samples.

Results

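The genes described here are 10 carriers that move bile acids and other organic anions, or the phospholipid of bile, across the membranes of the hepatocyte. They were chosen by name, as the rows of the count table whose symbol is Slc10a1, Slco1a1, Slco1a4 or Slco1b2 (uptake from blood), Abcb11, Abcb4 or Abcc2 (export into bile), or Abcc3, Abcc4 or Slc51b (export back to blood), and all 10 were found among 56748 genes. The data are RNA-seq read counts from mouse liver, with 5 libraries labelled ACSS2-flox (flox), the floxed controls, and 5 labelled ACSS2-HKO (HKO), described as a knockout of ACSS2 limited to liver cells. Both groups were kept for 4 months on a diet high in fat and fructose, in a study of metabolic dysfunction-associated steatohepatitis, so the comparison is between genotypes under that diet and there is no group on another diet. ACSS2 makes acetyl-CoA from acetate outside the mitochondrion. The sources used here do not give the Cre driver, or the sex, age and strain of the mice. The labels also do not say that each library came from its own animal, so p-values measure the spread between these libraries.

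Bile acids circulate between liver and gut. Hepatocytes take them up from sinusoidal blood through the sodium-dependent carrier NTCP and the sodium-independent OATP carriers, and pump them into the bile canaliculus with ABC transporters that use ATP. ABC pumps and a heterodimeric carrier on the basolateral side can return bile acids and conjugates to blood, a route known to gain weight when bile flow is blocked. In mice some of these genes differ between the sexes in the liver, under the control of growth hormone and androgens, and Slco1a1 is the classical male-predominant example among them.

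Total counts ran from 15413648 to 19275358 per library. The hepatocyte product Alb was read at 53079 to 103470 CPM in all 10 libraries (counts scaled to library totals that were corrected by the TMM method), the Y-linked Ddx3y at 71.2 to 121.8 CPM, and the X-inactivation transcript Xist at 0.600 CPM or less. The targeted gene Acss2 was read at 73.1, 86.8, 56.4, 128.6 and 58.5 CPM in the flox libraries (replicates 1 to 5, the order used throughout) and at 52.7, 58.9, 43.7, 40.2 and 51.3 CPM in the HKO libraries. The groups overlapped, and the log2 fold change of HKO over flox, -0.71 ± 0.21 (SE), did not pass (edgeR adjusted p = 0.0858), although it passed in DESeq2 (adjusted p = 0.0346) and in edgeR with library totals alone (0.0449), with no filter on low counts (0.0433) and without flox replicate 3 (0.0460). Counts are given per gene, and Acss2 overlaps Gss on the other strand. Which parts of the gene were counted and which exons were deleted is not known here.

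Of the 10 transporter genes, 1 rose and 1 fell in HKO. The uptake carrier gene Slco1a1 was 5.78-fold higher in HKO than in flox (95% interval 2.43 to 13.8), and the basolateral pump gene Abcc4 was 4.78-fold lower (95% interval 2.13 to 10.7). The other 7 tested genes did not pass, and Slc51b had too few counts to be tested. The share of all 14068 tested genes that passed an edgeR adjusted p of 0.05 was 3.99%, made up of 0.917% that rose and 3.07% that fell. The median log2 fold change of the 9 tested transporters was -0.13, against 0.01 over all tested genes. By membrane side, 1 of 4 uptake genes rose (median 0.00) and 1 of 2 tested basolateral genes fell. Of 3 canalicular genes 0 passed in edgeR or in DESeq2 (median -0.13). The 2 tested basolateral genes were Abcc4 (-2.26) and Abcc3 (-0.40), so their median of -1.33 describes neither. An unadjusted edgeR p under 0.05 was found for 1 of 4 uptake, 1 of 3 canalicular and 2 of 2 tested basolateral genes. The share of all tested genes under that limit was 16.9%. The calls of Slco1a1 and Abcc4 were each lost when some single libraries were left out.

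**Figure D1:**
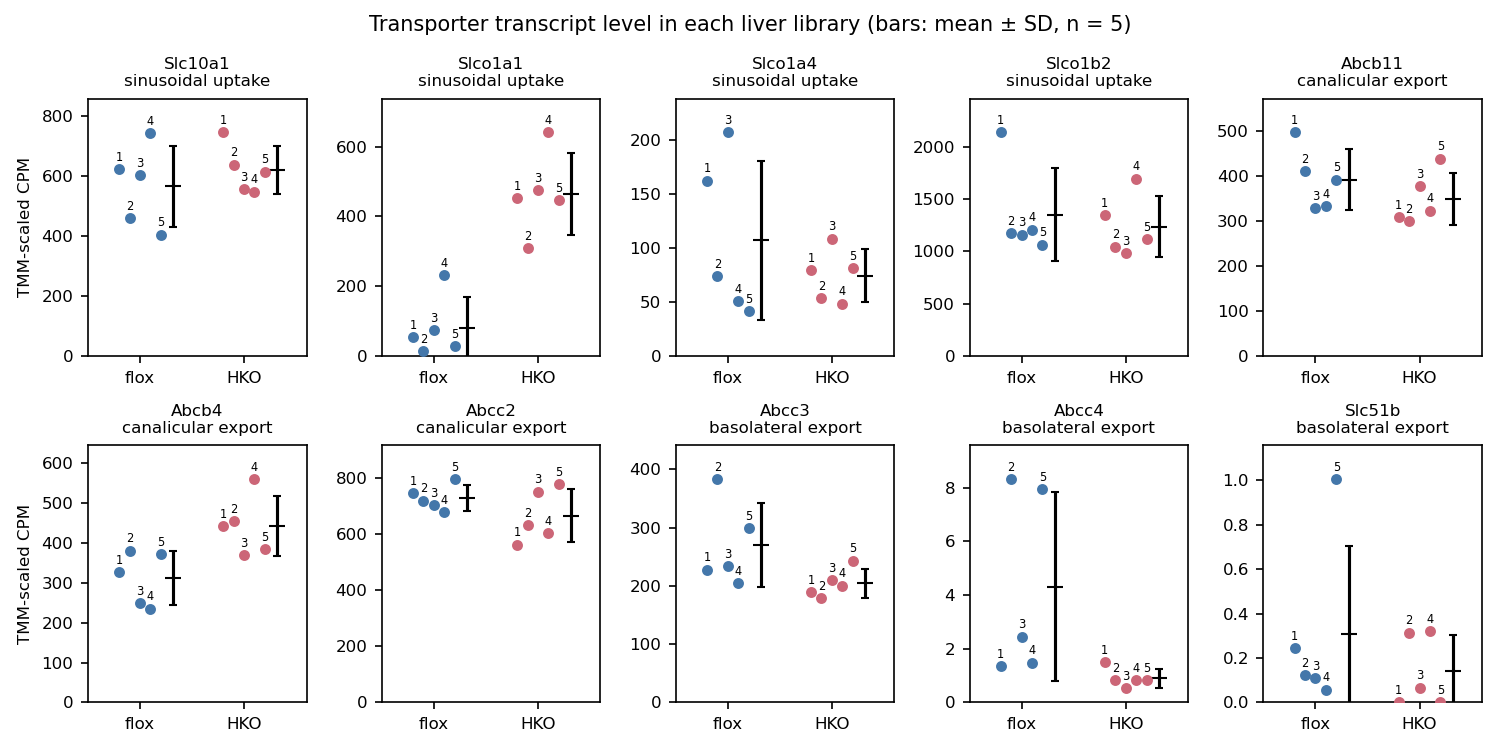
Level of each transporter transcript (vertical axis, TMM-scaled CPM from 0) in the 5 flox and 5 HKO libraries, with the replicate number beside each point and the mean ± SD as a bar, cut at 0 where the SD exceeds the mean. For Slco1a1 all HKO points (308.9 to 641.0) lie above all flox points (12.8 to 232.3), while for Abcc4 the flox mean is carried by replicates 2 and 5 (8.33 and 7.94).

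**Figure D2:**
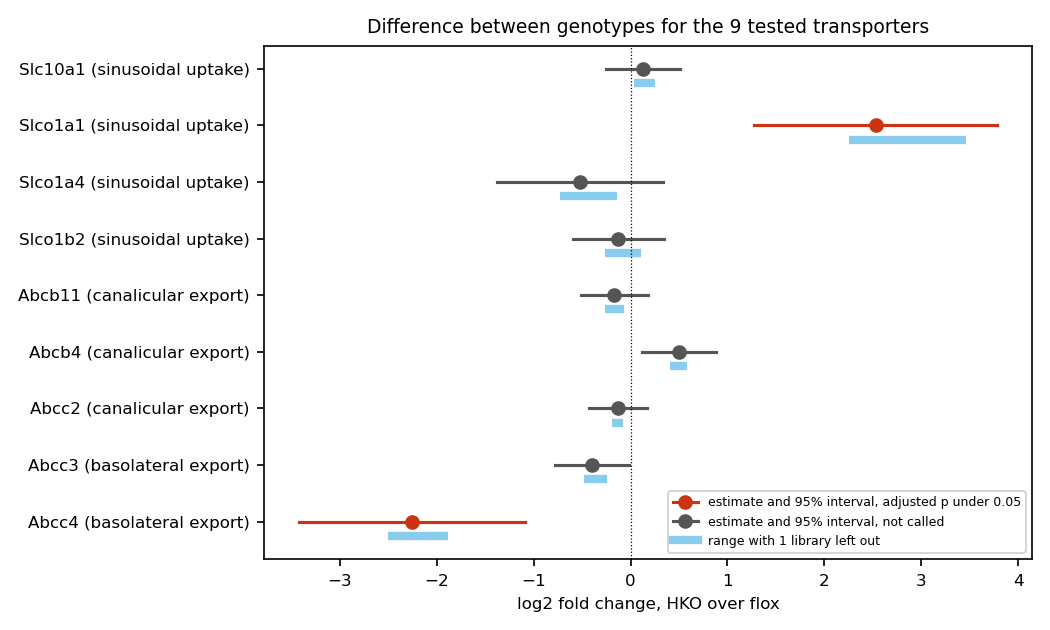
Log2 fold change of HKO over flox (horizontal axis) for the 9 tested transporters, with the 95% interval from the edgeR fit as a line and the range of estimates with 1 library left out as a pale bar. The intervals of Slco1a1 (1.28 to 3.78) and Abcc4 (-3.42 to -1.09) lie far from 0, and those of the other 7 genes reach no further than -1.38 and 0.88.

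On the uptake side, Slco1a1 encodes an OATP carrier of the sinusoidal membrane for bile acids, steroid conjugates and other organic anions. The flox libraries held 54.2, 12.8, 74.5, 232.3 and 28.2 CPM, and the HKO libraries 451.7, 308.9, 476.0, 641.0 and 446.1 CPM. The groups did not overlap, as was so for 5.37% of all tested genes, and flox replicate 4 stood nearest to the HKO libraries. The log2 fold change of 2.53 ± 0.58 (SE) had an edgeR adjusted p of 0.0268. An exact permutation test on log2 CPM, two-sided, returned p = 0.00794 (5 against 5 libraries), the smallest it can give. Leaving out flox replicate 1, 3 or 5 ended the call (edgeR adjusted p = 0.0630, 0.0503 and 0.0614), as did leaving out HKO replicate 1 or 4 (0.0528 and 0.0629), and it was also lost with robust dispersion (0.0849). Without flox replicate 4 the log2 fold change was 3.46 (edgeR adjusted p = 0.000861).

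Slco1a4 encodes another OATP carrier of the same subfamily, known for digoxin and bile acids, and is a neighbour of Slco1a1 on chromosome 6. In the coordinates of the table, whose build is uncertain, Slco1a1 lies at 141853008 to 141892688, Slco1a4 at 141751166 to 141801925, both on the minus strand, and Slco1b2 at 141575244 to 141632372 on the plus strand. The longest transcripts of Slco1a1 and Slco1a4 were 81.8% identical over 73.5% of Slco1a1, and none of the 10 genes had a near-identical copy. Slco1a4 was at 162.5, 74.2, 207.2, 50.4 and 41.3 CPM in flox and at 79.7, 53.2, 108.8, 48.5 and 81.6 CPM in HKO. The 2 highest libraries were flox replicates 3 and 1, and the remaining flox libraries lay within the HKO range or below it. The log2 fold change of -0.53 had a 95% interval of -1.38 to 0.33 (edgeR adjusted p = 0.562), so neither a 2-fold fall nor no change lies outside it, and without flox replicate 3 it was -0.14 and without flox replicate 1 it was -0.33.

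The stretches of 250 bases before the start sites of these paralogues are printed because Slco1a1 rose and its neighbour did not pass the test, a difference between the genes that was not tested itself. They come from RefSeq on GRCm38.p6, at chr6:141946963-141947212 for Slco1a1 and chr6:141856221-141856470 for Slco1a4, both on the minus strand and written 5′ to 3′.
Slco1a1: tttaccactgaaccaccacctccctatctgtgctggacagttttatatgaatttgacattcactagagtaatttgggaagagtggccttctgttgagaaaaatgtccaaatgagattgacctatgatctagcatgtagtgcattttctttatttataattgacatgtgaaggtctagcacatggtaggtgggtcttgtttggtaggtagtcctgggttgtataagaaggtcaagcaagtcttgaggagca
Slco1a4: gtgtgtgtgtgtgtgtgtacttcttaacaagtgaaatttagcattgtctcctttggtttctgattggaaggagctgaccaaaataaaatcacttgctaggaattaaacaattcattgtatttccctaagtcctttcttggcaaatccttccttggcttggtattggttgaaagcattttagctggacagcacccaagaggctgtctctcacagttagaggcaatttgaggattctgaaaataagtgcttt
Capitals would mark a match, on either strand, to 1 of 5 motifs: the inverted repeat known for FXR (GGNCA and TGANC parted by 1 base), STAT5 (TTCNNNGAA), HNF1 (GTTAAT and ATT parted by 1 base), the antioxidant response element that binds NRF2 (TGACNNNGC) and an HNF4 repeat (CAAAGTCCA). Neither window held one. Over 32817 start-site windows of this length the shares with a match were 0.929%, 7.01%, 0.372%, 10.2% and 0.384% in the same order.

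The other uptake genes did not pass either. Slc10a1 encodes NTCP, which takes up conjugated bile acids with sodium. It was at 624.7, 461.0, 602.6, 743.0 and 404.8 CPM in flox and at 746.5, 638.7, 555.9, 548.1 and 614.9 CPM in HKO, and the groups overlapped. Its log2 fold change of 0.13 had a 95% interval of -0.25 to 0.51 (edgeR adjusted p = 0.779). Slco1b2, the mouse OATP of the OATP1B type, was at 2136, 1176, 1159, 1207 and 1065 CPM in flox and at 1347, 1045, 980.6, 1695 and 1115 CPM in HKO. Flox replicate 1 stood above every other library for this gene. The log2 fold change was -0.13 (95% interval -0.60 to 0.35, edgeR adjusted p = 0.838), and 0.10 without flox replicate 1.

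Expressed per length (CPM per kilobase of the gene length in the table), Slco1b2 and Slc10a1 had the highest levels of the 10 genes in both groups. They were at 273.6 ± 90.0 and 257.9 ± 61.5 in flox and at 250.9 ± 59.1 and 282.3 ± 36.4 in HKO (mean ± SD, n = 5), so their order did not differ beyond the spread. In flox these were followed by Abcc2 (85.5 ± 5.30) and Abcb11 (76.2 ± 13.3), then Abcc3 (47.4 ± 12.7) and Abcb4 (33.3 ± 7.21), then Slco1a4 (16.7 ± 11.5) and Slco1a1 (15.2 ± 16.7), and last Abcc4 (0.675 ± 0.551) and Slc51b (0.434 ± 0.559). Within each of these pairs the ranges over libraries overlapped. In HKO, Slco1a1 stood at 88.1 ± 22.4 CPM per kilobase, beside Abcc2 (78.1 ± 11.1) and Abcb11 (67.9 ± 11.3), and Abcb4 (47.1 ± 8.04) stood above Abcc3 (35.9 ± 4.31) with ranges that overlapped. Of the summed CPM per kilobase of the 4 uptake genes, Slco1a1 took 1.36%, 0.524%, 2.54%, 6.94% and 1.30% in the flox libraries and 12.1%, 10.3%, 16.1%, 16.8% and 14.02% in the HKO libraries. The ratio of Slco1a1 to Slco1a4 per length was below 1 in 4 flox libraries (0.209 to 0.831), 5.60 in flox replicate 4 and 5.32 to 16.1 in HKO. Flox replicate 4 was thus inside the HKO range for this ratio.

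**Figure D3:**
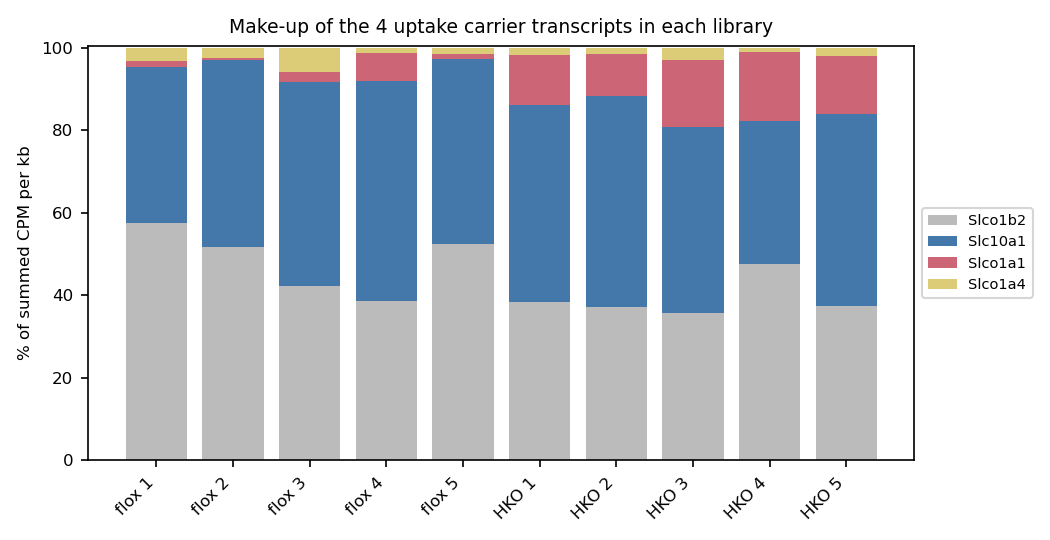
Share of each uptake carrier transcript in the summed CPM per kilobase of the 4 genes (vertical axis, percent) for each library (horizontal axis). Slco1b2 and Slc10a1 make up most of every bar, and the Slco1a1 segment takes 0.524% to 6.94% of flox bars and 10.3% to 16.8% of HKO bars.

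On the canalicular side, Abcb11 encodes BSEP, the bile salt export pump, whose gene is the textbook target of the bile acid receptor FXR. It was at 497.2, 410.4, 328.5, 333.9 and 391.9 CPM in flox and at 308.5, 299.5, 377.7, 323.2 and 438.7 CPM in HKO. The groups overlapped over most of their range, and the log2 fold change of -0.17 had a 95% interval of -0.51 to 0.18 (edgeR adjusted p = 0.667). Its upstream window is shown because it holds the FXR motif at a gene that did not pass. It lies at chr2:69342617-69342866 on the minus strand (RefSeq, GRCm38.p6), and capitals mark the match GGCCATTGACC, which runs from 62 to 52 bases before the start site.
Abcb11: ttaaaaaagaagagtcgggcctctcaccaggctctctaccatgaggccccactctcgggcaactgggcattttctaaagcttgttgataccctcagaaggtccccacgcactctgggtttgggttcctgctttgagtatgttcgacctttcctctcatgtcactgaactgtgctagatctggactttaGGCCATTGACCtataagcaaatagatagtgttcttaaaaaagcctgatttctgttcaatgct
Of the 9 members found in the promoter table (Abcc3 was not among them), Slco1b2 also had a match to this motif, GGACAGTGACC, from 87 to 77 bases before its start site. A match is a description of these letters and not of a bound site.

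Abcb4 encodes MDR2, the flippase that delivers phosphatidylcholine to bile, and showed the largest canalicular difference. It was at 326.6, 380.4, 249.1, 234.6 and 370.9 CPM in flox and at 441.9, 454.8, 369.1, 560 and 384.0 CPM in HKO. Flox replicates 2 and 5 lay above HKO replicate 3, so the groups overlapped, although the other 4 HKO libraries lay above every flox library. The log2 fold change of 0.50 ± 0.18 (SE) had a 95% interval of 0.12 to 0.88, an unadjusted p of 0.0137 and an edgeR adjusted p of 0.150, while 16.9% of all tested genes had an unadjusted p under 0.05. The same exact permutation test returned p = 0.0238, and no alternative made the gene pass (adjusted p from 0.0710 in DESeq2 to 0.309 in edgeR without HKO replicate 4). Abcc2 encodes MRP2, the canalicular pump for glutathione and glucuronide conjugates. Flox libraries held 680.1 to 797.6 CPM (median 719.7) and HKO libraries 562.7 to 779.6 CPM (median 631.6), with overlap and a log2 fold change of -0.13 (95% interval -0.43 to 0.17, edgeR adjusted p = 0.701). The ratio of Abcb4 to Abcb11 per length was 0.360 to 0.519 in flox and 0.480 to 0.950 in HKO, and the groups overlapped.

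On the basolateral side, Abcc4 encodes MRP4, a pump for bile acids together with glutathione, for sulphated steroids and for cyclic nucleotides, and its level in liver was low. It was at 1.34, 8.33, 2.45, 1.49 and 7.94 CPM in flox and at 1.49, 0.818, 0.528, 0.834 and 0.825 CPM in HKO, from 388 counts in flox and 72 in HKO. Flox replicates 2 and 5 were high, and flox replicate 3 also lay above every HKO library. HKO replicate 1 (1.488 CPM) lay above flox replicates 1 and 4 (1.344 and 1.487 CPM), so the groups overlapped. The log2 fold change of -2.26 ± 0.54 (SE) passed (edgeR adjusted p = 0.0324). By exact permutation the p was 0.0238. Without flox replicates 2 or 5 the log2 fold change was -1.88 and -1.91 and the call was lost (edgeR adjusted p = 0.0879 and 0.0900). It was also lost without HKO replicates 2 to 5 (0.0729, 0.0623, 0.0790 and 0.0725 in turn).

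The upstream window of Abcc4 is shown as that of the member that fell. It lies at chr14:118706220-118706469 on the minus strand (RefSeq, GRCm38.p6), and capitals mark a match to the antioxidant response element on the other strand, GCGGGGTCA, from 25 to 17 bases before the start site.
Abcc4: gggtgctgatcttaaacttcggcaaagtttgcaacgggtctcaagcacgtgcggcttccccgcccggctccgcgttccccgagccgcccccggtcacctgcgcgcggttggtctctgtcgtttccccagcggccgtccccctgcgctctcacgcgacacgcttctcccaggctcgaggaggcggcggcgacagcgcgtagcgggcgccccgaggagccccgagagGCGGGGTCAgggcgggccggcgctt
Abcc2 also held this motif, as TGACATAGC from 98 to 90 bases before the RefSeq start site, a gene that did not pass. Among the other members, the STAT5 motif matched in the windows of Slc10a1, Slco1b2 and Slc51b. The GENCODE M21 start sites of Abcc2 (43782192) and Slc51b (65422955) lie upstream of the RefSeq ones used here (43782308 and 65422773). The matches of Abcc2 and Slc51b fall between these sites, so by GENCODE they are not upstream of the gene.

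Abcc3 encodes MRP3, the basolateral pump for glucuronides and bile acids. It was at 228.1, 383.5, 233.7, 204.8 and 299.2 CPM in flox and at 189.7, 179.1, 209.3, 200.5 and 243.4 CPM in HKO. As for Abcc4, flox replicates 2 and 5 were the highest libraries. The log2 fold change of -0.40 ± 0.18 (SE) had a 95% interval of -0.78 to -0.02, which leaves out 0, but an edgeR adjusted p of 0.267, and it was -0.24 without flox replicate 2. Slc51b encodes the beta subunit of OST, a carrier that works only as a pair with the product of Slc51a. Its counts were 4, 2, 2, 1 and 20 in flox and 0, 5, 1, 5 and 0 in HKO, so it stood at or below 0.321 CPM in every library but flox replicate 5 (1.01 CPM), and 3 counts, the limit that a count of 0 allows, were worth 0.194 and 0.165 CPM in HKO replicates 1 and 5. Its end overlaps Rasl12 on the other strand, which had 56 counts, and without the use of strand known the reads of the pair cannot be told apart. Slc51a had 13 counts in flox and 15 in HKO. At this depth no difference in either subunit was detectable.

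The other genes of the pathway mostly did not pass. Of 16 tested transporters of the same families or membrane, 0 rose and 1 fell (median log2 fold change -0.07). This was Abcb1a (-2.10 ± 0.42, edgeR adjusted p = 0.0156), which encodes a P-glycoprotein and is 77% identical to Abcb4 over 86.2% of the Abcb4 transcript. It was at 2.56 to 15.1 CPM in flox and 1.27 to 2.39 CPM in HKO. None of 13 nuclear receptors and other regulators passed in edgeR or DESeq2, and 0 had an unadjusted p under 0.05 (median -0.03). The most abundant were Hnf4a (0.09 ± 0.21) and Rxra (-0.07 ± 0.17). Of 12 tested genes of bile acid synthesis, 1 rose, Cyp7b1 (2.21 ± 0.22, edgeR adjusted p = 0.000841), the oxysterol hydroxylase of the alternative pathway and a male-predominant gene in mice, and the median was 0.08. In this list 3 genes had an unadjusted p under 0.05, and 1 gene fell beside the 1 that rose in DESeq2 and in edgeR with library totals alone or with no filter. Of 11 genes of the canalicular scaffold and its trafficking, 1 fell, Msn (-1.09 ± 0.22, edgeR adjusted p = 0.0157), which encodes moesin, an actin linker that is abundant in leukocytes, and the median was -0.12. Of 12 tested target genes of the receptors CAR and PXR or of NRF2, 2 fell, Cyp2b10 (-3.60 ± 0.80) and the NRF2 target Nqo1 (-1.05 ± 0.23; edgeR adjusted p = 0.0233 and 0.0230), with a median of -0.41. That count became 0 with HKO replicate 2 or 4 left out. It was 1 with flox replicate 2 or HKO replicate 1 or 5 left out, and 4 with HKO replicate 3 left out. The count was 3 in DESeq2 and 1 with the replicate number as a block. With a filter of at least 1 CPM in 5 libraries it was 1 of 11 tested genes, and Cyp2b10 was too low to be tested.

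Some genes known to differ between the sexes in mouse liver passed the test as well. Of 14 male-biased genes 7 rose and 0 fell (median log2 fold change 1.73), among them Mup20 (1.80 ± 0.34), Elovl3 (1.92 ± 0.40) and Selenbp2 (2.37 ± 0.52), and the list also holds Cyp7b1. Selenbp2 has a near-identical copy in Selenbp1 and Mup20 one in the pseudogene Mup-ps19, so their reads may be shared. The call of Selenbp2 was lost with robust dispersion (edgeR adjusted p = 0.0753). With flox replicate 2 or 5, or HKO replicate 1, 2 or 4, left out, 4 rose, and with flox replicate 4 left out 11 rose. The summed level of the list was 1937, 1524, 1881, 6800 and 1683 CPM in the flox libraries and 8616 to 14117 CPM in HKO, so that flox replicate 4, the control library with the most Slco1a1, was also the one with the highest sum. Of 9 tested female-biased genes 4 fell and 0 rose (median -1.27), among them Cyp2b9 (-7.45 ± 0.80). Summed over all 15 listed genes, tested or not, flox held 525.9, 902.1, 456.5, 154.3 and 521.4 CPM and HKO 70.3 to 119.2 CPM. All 4 tested Y-linked genes were read in every library and 0 passed in edgeR or DESeq2, with 0 at an unadjusted p under 0.05. The part of these sex-biased genes in the differences of the transporters was not tested.

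**Figure D4:**
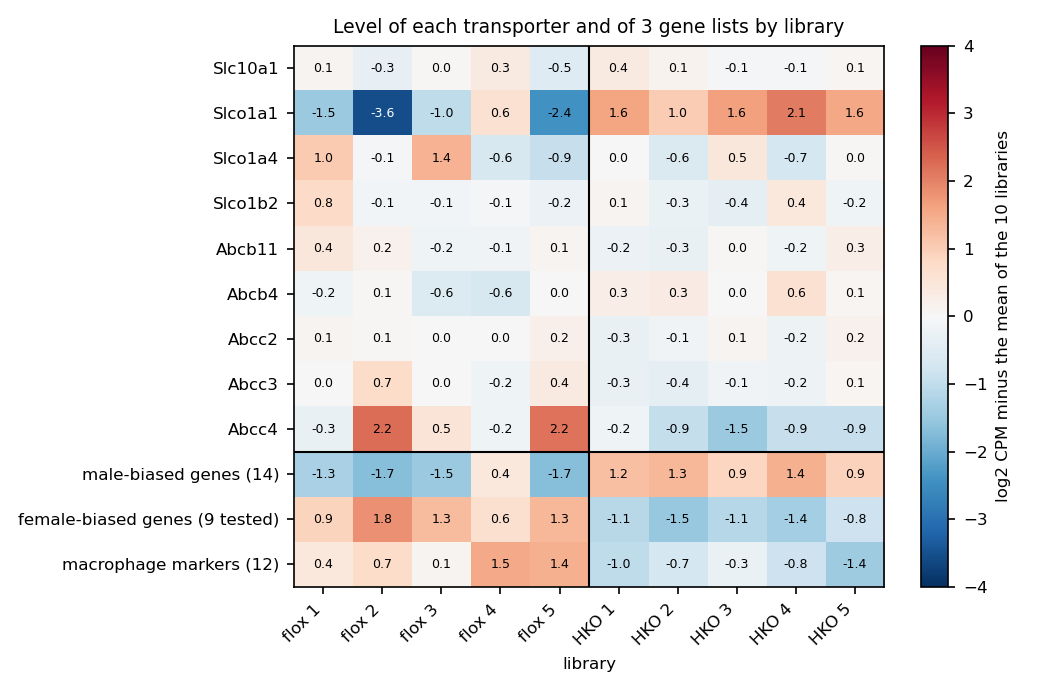
Log2 CPM minus the mean of the 10 libraries (colour and printed value) for the 9 tested transporters and, below the line, the mean of the tested genes of 3 lists, for each library. Slco1a1 has its lowest values in flox replicates 2 and 5 (-3.56 and -2.42), where Abcc4 has its highest (2.23 and 2.16), and the male-biased list is above 0 in flox replicate 4 (0.42) and in all HKO libraries.

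Macrophage markers also differed between the groups, with 12 of 12 lower in HKO (median log2 fold change -1.74) and summed levels of 246.7 to 589.4 CPM in flox and 88.03 to 196.1 CPM in HKO. The number called lower was 10 with robust dispersion or a replicate block, and 10 to 12 with 1 library left out. None of the 12 was at 0 in all libraries. The sums were highest in flox replicates 4 and 5 (583.4 and 589.4), while Abcc4 was high in flox replicates 2 and 5 and low in flox replicate 4. In whole liver, fewer cells of a type and less RNA per cell cannot be told apart, and the part of macrophages in the values of Abcc4 and Abcb1a was not tested. Of 13 hepatocyte markers 0 passed in edgeR (3 at an unadjusted p under 0.05, 2 higher in DESeq2), with a median of 0.18. Among 7 cholangiocyte markers 0 passed in edgeR or DESeq2 (0 at an unadjusted p under 0.05, median -0.46). Of 9 stellate cell markers 0 passed in DESeq2 or in edgeR as used for the other values. Their median was -0.26, and 4 had an unadjusted edgeR p under 0.05, as had 16.9% of all tested genes. Their log2 fold changes ran from -2.20 to 0.45, and in edgeR 2 fell with no filter and 1 without flox replicate 4. Of 8 endothelial markers 1 fell, Cdh5 (-0.87 ± 0.20). Flox replicate 5, where Abcc4 and Slc51b were high, stood apart in the cholangiocyte and stellate lists. Its summed cholangiocyte level (all 9 listed genes, tested or not) was 187.8 CPM, against 52.9 to 98.7 CPM in the other libraries. Its summed stellate level was 320.8 CPM, against 126.0 to 205.1 CPM. Flox replicate 2, where Abcc4 was highest, had sums of 52.9 CPM for cholangiocytes and 147.2 CPM for stellate cells. Without flox replicate 5 the cholangiocyte median was 0.09 and the stellate median -0.01. The part of these cells in the values of Abcc4 and Slc51b was not tested. Of 9 markers of kidney, gut and pancreas 7 were too low to be tested, and Fabp2 and Cela1 did not pass in edgeR or DESeq2.

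Genes whose log2 CPM followed a transporter most closely over the 10 libraries were sought among tested genes averaging at least 1 CPM. Genes with provisional symbols, such as Gm or Rik names, were left out, and the coefficients are descriptions of a search. For Slco1a1 the closest genes were Serpine2, Serpina3k and Mup11 (Pearson r of 0.991, 0.978 and 0.971, and 0.971, 0.929 and 0.899 after the group means were subtracted). Each rose in HKO, with log2 fold changes of 2.40, 1.64 and 4.26, and Mup11 has near-identical copies. The calls of Serpine2 and Mup11 were lost with robust dispersion (edgeR adjusted p = 0.0547 and 0.0649), as was that of Slco1a1. For Abcc4 they were Itgb5, Pfkl and Septin9 (r of 0.973, 0.959 and 0.958, and 0.956, 0.912 and 0.936 within groups). Of these Itgb5 fell (-0.59 ± 0.15, edgeR adjusted p = 0.0440). Its call was lost with RLE in place of TMM scaling (edgeR adjusted p = 0.0527) and with the replicate number as a block (0.0936). It was also lost with flox replicate 2, 4 or 5 left out, or any of HKO replicates 2 to 5. For Abcb4 they were Slc22a5, Plin2 and Hsdl2 (r of 0.966, 0.955 and 0.932), and for Abcc3 Gpx4-ps2, Camk2n2 and Capns1 (r of 0.934, 0.920 and 0.920), none of which passed in edgeR as used for the other values. Slc22a5 and Plin2 passed in DESeq2 (adjusted p = 0.0263 and 0.0379), and Slc22a5 in edgeR with no filter (0.0249). Slc22a5 encodes the carnitine carrier OCTN2 and Plin2 a lipid droplet coat protein. Gpx4-ps2 has a near-identical copy in Gpx4 (99.7% identity over 97.4% of the Gpx4-ps2 transcript), so its reads may be shared.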

How the data were processed

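Total RNA of whole liver was sequenced after library preparation with a VAHTS kit (per the labels' protocols). The authors deposited raw counts of reads per gene. Per the submitters' processing notes, mm10 and DESeq2 were used, while the sources used here name no aligner, counter, annotation or strand setting. Of 52073 identifiers shared with GENCODE M21 (GRCm38), 2.83% had the same start and end, so the build of the table's coordinates is uncertain. The second deposited table holds annotation only. Gene lengths came from the deposited table.

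Of 56748 genes 28040 had no count and 14068 passed filterByExpr. Both genotypes were compared with edgeR 4.0.16 (TMM, quasi-likelihood test, two-sided, R 4.3.3), with Benjamini-Hochberg adjustment over all tested genes and a threshold of 0.05, by a script tested on simulated data. The SE was derived from the fold change and the F statistic. Log2 CPM used a prior count of 2, and permutation tests ran over all 252 assignments. Libraries of a group differed beyond sampling noise (chi-square per degree of freedom at least 24.6). Alternatives were other scalings and filters, DESeq2 1.42.0, robust dispersion, a replicate block and each library left out. Limits from 3 counts cover counting error only.

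The members and gene lists were chosen with earlier results of these data known. The rule names all members, Acss2, up to 4 called genes of smallest p in each list or else up to 2 of the highest level, and the 3 genes most like each of the 4 members of smallest p. Slc51a, Xist, Gss and Rasl12 were named outside it, after their values were seen. Near-identical copies (BLAST 2.17.0, 95% identity over 50% of the transcript) were found for 6 of 52 named genes.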

Additional observations from a re-analysis of the deposited data

Results flagged for a closer look

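In 3 of the 22 groups of 5 libraries checked (each of the 10 transporters and Acss2 in each genotype), 1 library lay so far from the others that the gap to its nearest neighbour was over 0.71 of the group's range. The gap was taken on CPM. Chance gives this in about 1 group in 20 for normally distributed values, and whether CPM values are so distributed was not tested. Slco1a1 was at 232.3 CPM in flox replicate 4, against 12.8 to 74.5 in the other flox libraries. Slco1b2 was at 2136 CPM in flox replicate 1, against 1065 to 1207 in the others. Slc51b was at 1.01 CPM in flox replicate 5 (20 counts), against 0.0572 to 0.244 in the others. On log2 CPM, Slco1a1 was at 7.86 in flox replicate 4, against 3.69 to 6.22 in the other flox libraries. Slc51b was at 0.17 in flox replicate 5 on that scale, against -2.51 to -1.46 in the others. These gaps of Slco1a1 and Slc51b were under 0.71 of the group's range, and that of Slco1b2 was still over it.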

How the results depend on the processing

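With edgeR 561 genes and 2 transporters were called, and with DESeq2 1021 genes and 2 transporters. With robust dispersion 1 transporter was called (Abcc4, and 0 uptake genes), and with the replicate number as a block, 1 (Slco1a1, and 0 basolateral genes; Abcc4 adjusted p = 0.0746). Same-numbered libraries did not deviate together (r from -0.121 to 0.24, and 0 of 5 closest to their own number), so the numbers were not used to pair libraries, and what they stand for is not known here. With 1 library left out, 289 to 673 genes were called in all, 0 to 2 transporters, 0 to 1 uptake genes and 0 to 1 basolateral genes. Both Slco1a1 and Abcc4 were lost without flox replicate 5 and without HKO replicate 4. Slco1b2 changed sign without flox replicate 1, with a range of -0.26 to 0.10 over the libraries left out. The other 8 tested transporters kept their direction under every alternative run, with RLE factors, library totals and other filters included. Library totals alone moved the median of all genes to -0.10 (log2). Calls of Cyp2b10, Nqo1, Selenbp2, Fmo2, Cdh5 and Itgb5 were also lost with some single libraries left out. Those of Cyp2b10 and Itgb5 were lost with the replicate block too (edgeR adjusted p = 0.0662 and 0.0936), and that of Itgb5 with RLE factors (0.0527). The alternatives on length-normalized values were not run, since neither table holds such values. Depth limits Slc51b, and Abcc4 in HKO.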
